A study of Rattus norvegicus with 241 samples.

Results

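The luminal mammary cells of 8 ACI rats that had received vehicle were compared, 4 with an estradiol (E2) implant against 4 without. They were chosen from the sample labels (ACI tumor experiment, luminal fraction, vehicle treatment) and make up 8 of the 241 samples of the series and 8 of the 17 rats with a luminal library in that experiment. The series asked whether a short course of a TGFBR inhibitor (TGFBRi, LY2157299) in young rats changes the mammary gland and lowers its cancer risk, and ACI is an inbred strain whose mammary glands develop tumors under long exposure to estrogen. All 8 rats were virgin females that were given vehicle by oral gavage 2 times a day for 21 days from an age of 38 days. At 60 days of age 4 of them (A4-1, A4-27, A4-3 and A4-37) received an implant with 37 mg of E2, and the other 4 (A4-18, A4-28, A4-38 and A4-8) an empty one. Glands that looked normal were collected from rats with and without E2. The labels of all 8 rats give the day as variable and after tumors had grown, whereas the methods give a set time after implantation, or an earlier one where an animal's health failed. Luminal cells were sorted from them as the CD24+CD29low fraction without CD45 and CD31. The 4 vehicle rats with E2 were labeled tumor-bearing and the 4 without E2 tumor-free. The E2 implant and the presence of a tumor therefore cannot be told apart in these 8 rats. The paper describes growth resembling hyperplasia of pregnancy in visibly tumor-free glands of all E2-treated rats. It also reports microscopic adenocarcinomas there in most vehicle rats with E2. Whether such cells entered the 4 libraries with E2 was not tested. The paper further reports pituitary adenomas under E2, fatal in some rats, with or without TGFBRi. The part of such adenomas in the results below was not tested. Milk protein was also stained in that study, in glands with and without E2. The paper describes its production as induced by E2 and reports no effect of TGFBRi on it. Age at collection and estrous stage are not in the labels used here. The p-values measure the spread between rats, since each library came from 1 rat.

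The luminal layer of the mammary duct holds hormone receptor-positive cells, often called mature luminal cells, and receptor-negative cells that include the precursors of milk-producing alveoli. Estrogen acts through ESR1 in the receptor-positive cells, raises the progesterone receptor PGR there, and reaches neighboring cells through secreted signals such as AREG and, downstream of progesterone, WNT4. Estrogen also stimulates release of prolactin by the rat pituitary, and prolactin acts through PRLR, JAK2 and STAT5 to switch on milk protein genes. In bulk libraries, fewer cells of a type and less RNA per cell cannot be told apart.

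The deposited luminal libraries of the 8 rats held 19007447 to 29414027 reads on named genes, with overlapping ranges in the 2 groups (exact permutation test, two-sided, p = 0.457). A further 33 to 40.0% of all reads fell on no named gene. Library A4-8, a rat without E2, stood apart from the other 3 of its group. The 21-gene list of milk proteins took 17.04% of its reads, against 2.917 to 5.31% in the other 3 rats without E2. On the first principal component, which held 24.9% of the variance, the rats with E2 lay at 44.2 to 88, A4-8 at -19.2 and the other 3 rats without E2 at -65.2 to -105.9. The label of A4-8 was kept, and the main results are given with and without this rat where it changes them. A4-8 was singled out by its milk protein share and its place nearest the rats with E2. Leaving it out therefore favors more calls, above all of milk protein genes, and gives no separate support for them.

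Values are normalized read counts (reads divided by a size factor of each library), differences are log2 differences of these counts plus 1 with their SE, and p-values are from limma with Benjamini-Hochberg adjustment over all genes tested, a gene being called at an adjusted p of 0.05 or less. Values per rat are given in the order A4-18, A4-28, A4-38 and A4-8 for the rats without E2, then A4-1, A4-27, A4-3 and A4-37 for those with E2. Of 13590 genes tested, 115 were higher and 86 lower with E2. These 201 genes were 1.48% of those tested (0.846% higher and 0.633% lower), and 1972 genes had an unadjusted p below 0.05. Scaling to reads outside the milk proteins turned the split into 224 higher and 71 lower and moved the median of all genes tested from 0.0 to 0.187 on the log2 scale, whereas edgeR on the recovered reads gave 57 higher and 78 lower. In 196 of the 201 called genes the 4 values with E2 did not overlap the 4 without, which held for 7.7% of all genes tested. Without A4-8 the counts were 314 higher and 217 lower (2.32% and 1.6% of the genes then tested, 3.92% in all), and 195 of the 201 genes were among them. Leaving out A4-38 gave the fewest calls, 55 higher and 34 lower.

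**Figure D1:**
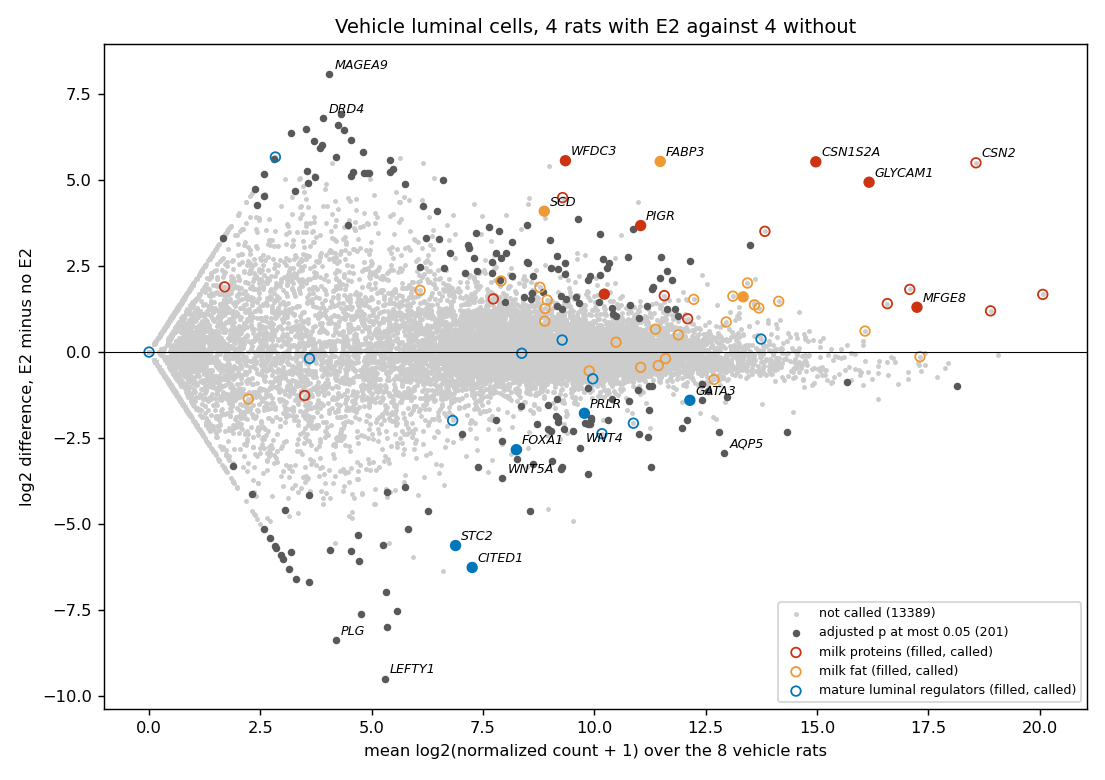
Log2 difference between vehicle luminal cells with and without E2 (vertical axis) against the mean log2(normalized count + 1) over the 8 rats (horizontal axis), 1 point per gene, with the 201 called genes dark and 3 gene lists colored (filled where called). Called milk protein genes lie above 0, up to 5.57 for WFDC3, and called mature luminal regulators lie below 0, down to -6.27 for CITED1.

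Milk protein genes made up the group with the most calls among the genes that were higher with E2. Their share of all luminal reads was 25.8, 26.98, 24.53 and 23.41% in the rats with E2 (A4-1, A4-27, A4-3, A4-37) and 5.101, 5.31, 2.917 and 17.04% in those without. The mean was 25.18% ± 1.546 (SD, n = 4) with E2 and 7.592% ± 6.392 (SD, n = 4) without, and the groups did not overlap. No p-value is given, since the list was chosen with earlier results of these data known. Milk protein genes are a textbook set of prolactin and STAT5 targets, so promoters were searched for the STAT5-type motif TTCNNNGAA (the same on both strands). The stretches of 250 bases before the start of 4 casein genes and of GLYCAM1, which were picked because they hold it, are shown with that motif in capitals. They are RefSeq sequences of build GRCr8, read 5′ to 3′ on the strand of the gene, from chr14:20638850-20639099 (CSN1S1, minus strand), chr14:20574472-20574721 (CSN1S2A, minus), chr14:20545619-20545868 (CSN1S2B, minus), chr14:20601574-20601823 (CSN2, plus) and chr7:136561300-136561549 (GLYCAM1, minus).
CSN1S1: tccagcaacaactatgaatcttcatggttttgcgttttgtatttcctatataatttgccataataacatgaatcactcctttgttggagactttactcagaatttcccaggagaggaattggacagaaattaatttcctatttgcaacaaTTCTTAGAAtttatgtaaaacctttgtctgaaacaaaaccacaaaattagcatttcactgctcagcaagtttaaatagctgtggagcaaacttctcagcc
CSN1S2A: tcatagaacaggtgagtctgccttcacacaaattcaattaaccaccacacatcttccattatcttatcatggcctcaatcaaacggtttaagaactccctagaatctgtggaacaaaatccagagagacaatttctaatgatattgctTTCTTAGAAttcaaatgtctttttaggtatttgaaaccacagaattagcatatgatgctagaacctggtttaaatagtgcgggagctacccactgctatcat
CSN1S2B: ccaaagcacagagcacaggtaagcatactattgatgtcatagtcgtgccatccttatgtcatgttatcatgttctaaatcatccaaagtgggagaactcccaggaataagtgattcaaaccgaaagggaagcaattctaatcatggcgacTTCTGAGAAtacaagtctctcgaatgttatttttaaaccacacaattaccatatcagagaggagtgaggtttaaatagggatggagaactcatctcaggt
CSN2: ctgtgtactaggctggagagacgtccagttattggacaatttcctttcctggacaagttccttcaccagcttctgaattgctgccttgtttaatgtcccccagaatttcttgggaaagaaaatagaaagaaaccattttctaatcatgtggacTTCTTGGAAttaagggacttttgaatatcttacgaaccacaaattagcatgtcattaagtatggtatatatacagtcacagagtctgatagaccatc
GLYCAM1: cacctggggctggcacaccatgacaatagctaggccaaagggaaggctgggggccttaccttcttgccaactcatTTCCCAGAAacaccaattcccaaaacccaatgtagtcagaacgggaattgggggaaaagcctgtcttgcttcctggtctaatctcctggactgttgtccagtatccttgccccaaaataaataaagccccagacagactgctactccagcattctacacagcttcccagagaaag
The motif began 100 bases before the gene start in CSN1S1 and CSN1S2B, 97 bases before it in CSN2, a few bases further away in CSN1S2A, and 175 bases before it in GLYCAM1. The motif was present in 6 of the 18 milk protein genes with a RefSeq promoter (33.3%), the sixth being LAO1, and in 7.44% of all 24206 RefSeq promoters of this length. Among the called genes with a promoter, 6 of 76 that were higher (7.89%) and 1 of 60 that were lower with E2 (1.67%) held it, and 6.0% of the 10162 genes tested with a promoter did. AGGTCA, 1 arm of the estrogen response element, on either strand, was in 6 of 76 higher (7.89%) and 10 of 60 lower genes (16.7%), in 11.1% of the genes tested, in 5 of the 18 milk protein genes (27.8%) and in 13.5% of all promoters of this length. A match describes these letters only and says nothing on binding.

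CSN1S2A, an alpha-S2 casein, measured 5248, 4358, 948.3 and 22891 in the rats without E2 and 217489, 209680, 227576 and 221733 in those with E2. All 4 rats with E2 were well above all 4 without, by 26.2-fold in the means (5.54 ± 0.70 on the log2 scale, adjusted p = 0.0012). WFDC3, a whey acidic protein-type protease inhibitor domain gene, measured 44.5, 171.3, 46.44 and 215.8 without E2 and 6160, 5620, 3401 and 3463 with E2. The groups were far apart, by 39-fold (5.57 ± 0.56, adjusted p = 0.000146), and both genes were called in all 8 fits that left out 1 rat.

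GLYCAM1, a mucin-like milk glycoprotein, measured 31429, 2222, 2873 and 155273 without E2 and 431126, 486282, 303001 and 438315 with E2. It rose by 4.94 ± 0.98 on the log2 scale (adjusted p = 0.0196), with A4-8 well above the other rats of its group. PIGR, the receptor that carries immunoglobulin A into milk, rose from 151.5 to 3216 over the rats without E2 to 6626 to 8958 over those with E2 (3.68 ± 0.68, adjusted p = 0.00845). MFGE8, a milk fat globule protein, rose by 1.3 ± 0.29 (adjusted p = 0.0273) and FOLR1, a folate receptor, by 1.69 ± 0.39 (adjusted p = 0.0338). In all, 6 of the 18 milk protein genes tested were called higher and none lower, while 0.846% of all genes tested were called higher. A positive difference was found in 17 of 18, and the list median was 1.75, against 0.0 for all genes tested. With edgeR 2 of the 6 kept their call (CSN1S2A and WFDC3), and with DESeq2 9 milk protein genes were called.

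CSN2, the beta-casein gene, measured 335228, 41341, 584.2 and 1364168 in the rats without E2 and 2573088, 3131013, 2251646 and 2607888 in those with E2. The groups did not overlap, but the values without E2 spread so widely, with A4-8 at 51.66% of the mean with E2, that the difference of 5.51 ± 1.61 was not called (adjusted p = 0.106). TF, the iron carrier transferrin, measured 405693, 464546, 421244 and 1800746 without E2 and 2013663, 1977992, 2212469 and 1698197 with E2 (1.68 ± 0.42, adjusted p = 0.0522). Here A4-8 lay within the range of the rats with E2, and the other 3 rats lay close together well below it. WAP, the whey acidic protein, measured 4261, 7785, 209 and 49345 without E2 and 52304, 71478, 34901 and 44779 with E2 (3.51 ± 1.18, adjusted p = 0.16), again with A4-8 inside the E2 range.

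Without A4-8, 14 of the 18 milk protein genes were higher with E2 and none lower, and the list median was 2.25. A4-8 was singled out by its high milk protein share, so a gain in such calls without it was largely built in. CSN2 then rose by 7.03 on the log2 scale (adjusted p = 0.0179), CSN1S1 by 2.23 (adjusted p = 0.019), CSN1S2B by 2.04 (adjusted p = 0.0241), CSN3 by 1.64 (adjusted p = 0.00786), WAP by 4.69 (adjusted p = 0.0209) and TF by 2.19 (adjusted p = 0.00122). Without A4-38, the rat with the lowest CSN2 and CSN1S2A values, 3 milk protein genes were called. Reads that map to several places were not counted, so the split between the paralogs CSN1S2A and CSN1S2B is uncertain. LALBA, the alpha-lactalbumin subunit of lactose synthase, measured 24594, 151013, 28060 and 124414 without E2 and 157300, 131391, 241423 and 129734 with E2, so its groups overlapped and it was not called (1.41 ± 0.56, adjusted p = 0.237).

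**Figure D2:**
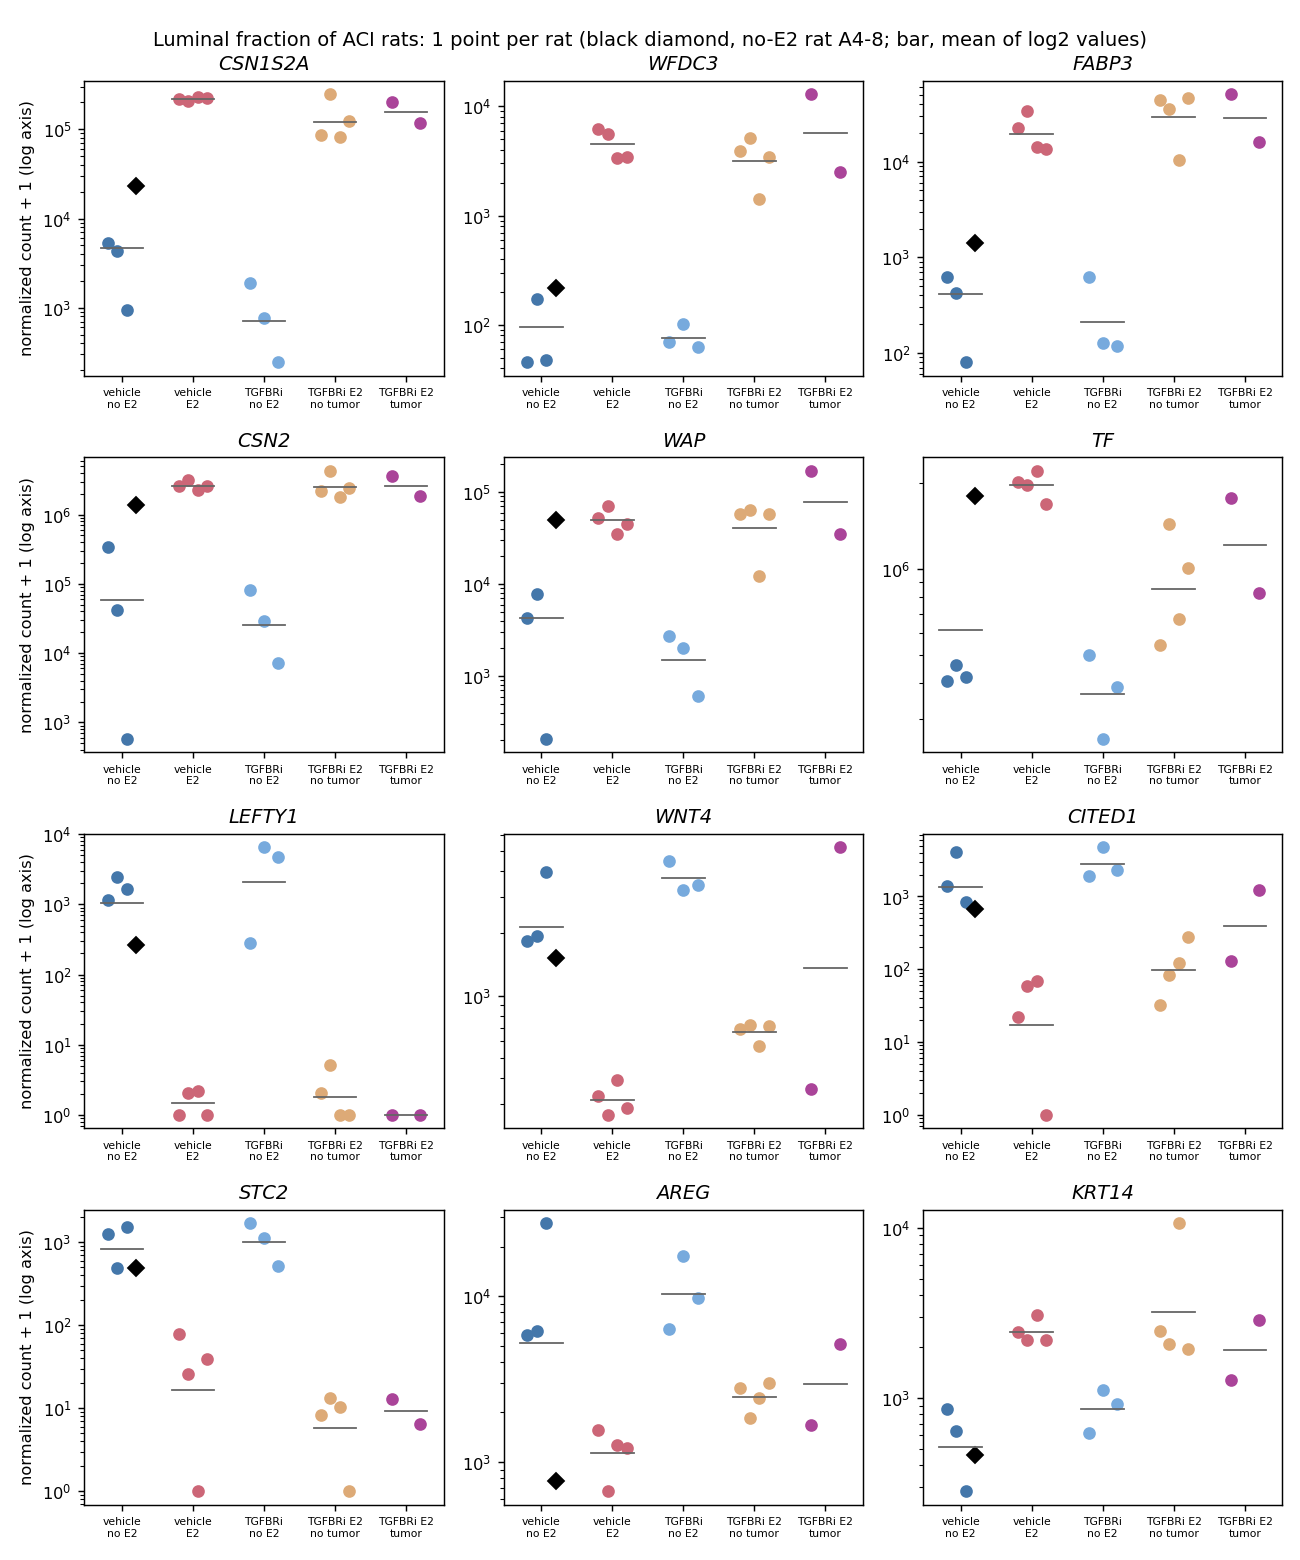
Normalized count plus 1 (log axis) of 12 genes in every luminal rat, 1 point per rat, in 5 groups by treatment, E2 and tumor, with bars at the mean of the log2 values and the no-E2 rat A4-8 as a black diamond. For WFDC3 and FABP3 the diamond (215.8 and 1396) lies between the other vehicle rats without E2 and those with E2. For WAP and TF it lies within the values of the vehicle rats with E2 (49345 and 1800746).

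Milk fat genes were the second group in which more genes were higher than lower. FABP3, which binds long-chain fatty acids in the cytosol, measured 629.3, 428.3, 79.44 and 1396 without E2 and 22466, 34118, 14087 and 13440 with E2. The lowest rat with E2 was far above the highest without, and the means differed 33.2-fold (5.55 ± 0.73, adjusted p = 0.00122). SCD, the desaturase that makes oleic acid, measured 98.08, 26.35, 436.3 and 138.5 without E2 and 2863, 1369, 1559 and 2325 with E2. It rose by 4.10 ± 0.80 (adjusted p = 0.0124), and A4-8 stood at 6.824% of the mean with E2. ME1, the malic enzyme that supplies NADPH for fatty acid synthesis, measured 6490, 3076, 4252 and 14687 without E2 and 18454, 21013, 15228 and 18261 with E2. It rose by 1.61 ± 0.38 (adjusted p = 0.0423), although A4-8 came close to the lowest rat with E2 and the call was lost with edgeR (adjusted p = 0.146) and without A4-38. XDH, which coats the milk fat globule together with BTN1A1, measured 3383, 2852, 5294 and 18302 without E2 and 24694, 22223, 25301 and 17704 with E2 (2.01 ± 0.50, adjusted p = 0.0514), with A4-8 above the lowest rat with E2.

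Of the 27 milk fat genes tested, 3 were called higher and none lower, while 0.846% of all genes tested were called higher. A positive difference was found in 20 of the 27, and the median was 1.27. Without A4-8, 11 were higher, among them XDH, BTN1A1, THRSP, ACACA, SREBF1, ACSS2, CIDEA and ELOVL5. For THRSP and ELOVL5, A4-8 itself lay above every rat with E2 (53716 against 18046 to 46103, and 5235 against 2316 to 3827). Among the 21 genes of lactose synthesis and milk transport none was called higher, 17 had a positive difference (median 0.62), and AQP5, a water channel, fell. Without A4-8, 3 of them were called higher (UGP2, SLC35A2 and CA6), and DESeq2 with all rats called 4 higher and 2 lower. For CA6, A4-8 itself was at 4511, above every rat with E2 (749.8 to 1766). AQP5 measured 20334, 18765, 47051 and 11469 without E2 and 4353, 1483, 3787 and 2412 with E2, with no overlap (-2.94 ± 0.40, adjusted p = 0.00122). Of the 18 regulators and markers of luminal progenitors and alveoli, MFGE8 was the one called (with CD14, higher, as well without A4-8). For CD14, A4-8 itself was at 36082, above every rat with E2 (18135 to 23224). The transcription factor ELF5, a driver of alveolar differentiation, measured 172.5, 320.2, 250.5 and 640.4 without E2 and 576.9, 874.9, 712.6 and 502.9 with E2 (1.08 ± 0.45, adjusted p = 0.257), its groups overlapping through A4-8.

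Among regulators of hormone receptor-positive (mature) luminal cells, 5 of 15 genes tested were called lower with E2 and none was called higher. Of all genes tested 0.633% were called lower. CITED1, a transcriptional co-regulator found in receptor-positive cells, measured 1380, 4082, 842 and 679.7 without E2 and 21.37, 58.33, 68.27 and 0 with E2. Every rat with E2 was below every rat without, by 47.2-fold in the means (-6.27 ± 1.09, adjusted p = 0.00521), and the gene was called in all 8 fits that left out 1 rat. STC2, a secreted glycoprotein and textbook estrogen target in human breast cancer cells, measured 1255, 494.2, 1541 and 493.9 without E2 and 78.34, 24.56, 0 and 38.04 with E2. It fell 26.8-fold (-5.63 ± 1.12, adjusted p = 0.0152), with wide spread among the rats with E2.

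FOXA1, the pioneer factor that opens chromatin for ESR1, measured 844.6, 419, 3043 and 402.7 without E2 and 92.59, 74.7, 153.3 and 150.7 with E2 (-2.84 ± 0.60, adjusted p = 0.0225). GATA3, a master regulator of luminal identity, measured 8637, 5329, 16735 and 3807 without E2 and 2835, 3112, 2549 and 2663 with E2 (-1.40 ± 0.33, adjusted p = 0.036). The receptor PRLR measured 1209, 1298, 2755 and 1610 without E2 and 546.6, 445.1, 537.8 and 379 with E2 (-1.78 ± 0.39, adjusted p = 0.0246). In all 3 genes the groups did not overlap and A4-38 was the highest rat. Without A4-38 the calls of FOXA1, GATA3, PRLR and STC2 were lost, and CITED1 was the one mature luminal gene still called. Over the fits that left out 1 rat, the differences of these 4 genes stayed at -2.21, -1.01, -1.53 and -4.27 or lower. GATA3 also lost its call when scaled to reads outside milk proteins.

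Of the 15 mature luminal regulators tested, 5 were called lower (PRLR, FOXA1, GATA3, CITED1 and STC2) and none was called higher. A negative difference was found in 11 and a positive one in 3. LY6D went the other way from the called genes, with 0 reads in the rats without E2 and 284 in those with E2. It was not called in vehicle rats by limma. In tumor-free TGFBRi rats LY6D was called higher with E2, and 6 genes of the list were called lower. The list median was -1.40 (-1.45 with TMM scaling and -1.20 with scaling to reads outside milk proteins). edgeR called 5 of them lower and 0 higher, and DESeq2 7 lower and 1 higher. TBX3, a T-box factor of receptor-positive cells, measured 3851, 1197, 4534 and 2266 without E2 and 774.5, 446.2, 280.3 and 670.6 with E2 (-2.37 ± 0.59, adjusted p = 0.0522), and was called without A4-8 (adjusted p = 0.0466). None of 11 general luminal markers was called, but 10 of them had a negative difference (median -0.44). In 5 of the 11 the groups did not overlap, which held for 7.7% of all genes tested. The summed level of the 11 markers was 783355 to 1114742 without E2 and 616195 to 780014 with E2, also with no overlap. The part of this in the drop of the mature luminal regulators was not tested. EPCAM, KRT8, KRT18 and CD24 were detected in every rat.

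Of 11 steroid and prolactin receptors, PRLR was the one called lower, none was called higher, and the median was 0.35. Without A4-8 the vitamin D receptor VDR was called higher (1.44, adjusted p = 0.0179). A4-8 itself was at 3229 for VDR, above every rat with E2 (2208 to 2634). ESR1 measured 263.4, 81.7, 582.9 and 199.6 without E2 and 124.6, 50.14, 146.1 and 9.862 with E2, so the groups overlapped (-1.99 ± 1.24, adjusted p = 0.503). PGR measured 1810, 582.4, 4051 and 682 without E2 and 987.3, 501.4, 1307 and 521.3 with E2 (-0.78 ± 0.52, adjusted p = 0.545), also with overlap. Of 24 estrogen targets of luminal cells, 1 was called higher (IRS1) and 1 lower (STC2; 2 without A4-8, with AREG), with 11 positive and 13 negative differences and a median of -0.14, which became 0.06 under scaling to reads outside milk proteins. IRS1, the adaptor of insulin and IGF1 receptors, measured 0, 2.635, 1.222 and 28.85 without E2 and 95.26, 227.2, 74.26 and 211.3 with E2 (5.12 ± 1.11, adjusted p = 0.0242, with edgeR adjusted p = 0.152).

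Secreted signals of receptor-positive cells were lower or not called. WNT4, the progesterone-induced ligand that acts on basal stem cells, measured 1841, 1949, 3963 and 1516 without E2 and 325.8, 264, 390.4 and 284.6 with E2. It fell 7.33-fold (-2.78 ± 0.53, adjusted p = 0.0114), with narrow spread among the rats with E2. WNT5A, a non-canonical Wnt ligand, measured 944.5, 401.9, 1366 and 1122 without E2 and 65.88, 60.37, 49.11 and 107.1 with E2. It fell 13.6-fold (-3.67 ± 0.52, adjusted p = 0.00126) and was called in all 8 fits that left out 1 rat. AREG, the EGF receptor ligand that carries the estrogen signal in the pubertal duct, measured 5862, 6153, 27573 and 767.4 without E2 and 1564, 665.1, 1274 and 1216 with E2. Its groups overlapped through A4-8, and it was not called (-2.22 ± 0.71, adjusted p = 0.13), while edgeR called it (adjusted p = 0.0446) and limma without A4-8 gave -3.15 (adjusted p = 0.00288).

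Of 13 paracrine mediators 1 was called lower (WNT4) with all rats and 3 without A4-8 (WNT4, AREG and INHBA). Of 17 Wnt ligands and targets, WNT4 and WNT5A were the ones called (with LGR4, higher, as well without A4-8), and 11 had a positive difference (median 0.64). In the IGF axis (14 genes, median 0.72) 2 genes were called higher. IGFBP2, an IGF-binding protein, measured 267, 362.4, 426.5 and 182.3 without E2 and 1415, 1367, 888.7 and 2426 with E2 (2.27 ± 0.51, adjusted p = 0.0283). IGFALS, the acid-labile subunit of the IGF complex in serum, measured 0, 1.318, 0 and 9.231 without E2 and 291.1, 162.7, 305.4 and 98.62 with E2 (6.47 ± 1.52, adjusted p = 0.0382, with edgeR adjusted p = 0.149).

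Genes were ranked among those called that averaged 50 or more reads and whose groups did not overlap. By this rule the 10 largest decreases were in LEFTY1, PLG, TMEM150C, CACNA1S, ABCC8, ACSM3, CNTN1, MYCL, CITED1 and HPX. Their log2 differences ran from -9.50 to -6.08. LEFTY1, a secreted antagonist of NODAL in the TGFB family, measured 1148, 2421, 1657 and 264.2 without E2 and 0, 1.023, 1.198 and 0 with E2. The 4 rats with E2 had 2 reads in all against 4686, a ratio of 2470 (95% exact interval 683.9 to 20417, which covers counting error only), and its fitted difference was -9.50 ± 1.03 (adjusted p = 0.000239). PLG, the precursor of plasmin, measured 138.9, 458.6, 661.1 and 285 without E2 and 0 in every rat with E2, so that it was at least 455-fold lower against a floor of 3 reads over the group (adjusted p = 0.00414).

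ABCC8, the sulfonylurea receptor subunit of potassium channels, measured 485.9, 260.9, 857.9 and 1589 without E2 and 1.78, 0, 0 and 50.72 with E2 (-7.54 ± 1.15, adjusted p = 0.0024). ACSM3, a mitochondrial medium-chain acyl-CoA synthetase, measured 267.9, 342.6, 564.6 and 761.6 without E2 and 8.012, 0, 0 and 16.91 with E2 (-6.97 ± 0.90, adjusted p = 0.00121). In both genes A4-8 was the highest rat, on the side opposite to the group with E2. CACNA1S, a subunit of L-type calcium channels, measured 226.1, 159.4, 1166 and 481.2 without E2 and 0, 0, 13.17 and 0 with E2 (-7.61 ± 1.26, adjusted p = 0.00416), and TMEM150C, a membrane protein linked to mechanosensitive currents, 487.7, 449.3, 954.4 and 837.7 without E2 and 39.17, 0, 0 and 0 with E2 (-8.01 ± 1.12, adjusted p = 0.00126). For each of them 1 rat with E2 held all the reads of its group. HPX, the heme carrier hemopexin, ranged from 139.3 to 428.6 without E2 and from 0 to 11.57 with E2 (-6.08 ± 1.32, adjusted p = 0.0242, with edgeR adjusted p = 0.0644).

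By the same rule the 10 largest increases were in MAGEA9, LDHC, DRD4, GRIK2, OLFML1, IGFALS, VIL1, FGF23, SERPINA3C and FERMT1. All of them were at or near 0 in most rats without E2. MAGEA9, a cancer-testis antigen gene, measured 0 in every rat without E2 and 697.1, 41.96, 481.5 and 374.7 with E2, at least 462-fold higher against the floor of 3 reads (adjusted p = 0.00443). DRD4, a dopamine receptor, measured 0.9081, 0, 0 and 1.154 without E2 and 307.1, 306, 106.6 and 63.4 with E2. That was 2 reads in the group without E2 and a ratio of 380 (95% exact interval 104.8 to 3141), with a fitted difference of 6.81 ± 0.93 (adjusted p = 0.00122).

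LDHC, the testis-type lactate dehydrogenase, measured 0, 9.224, 0 and 0 without E2 and 300.9, 95.17, 216.8 and 360.7 with E2 (6.93 ± 1.00, adjusted p = 0.00165). GRIK2, a kainate receptor subunit, measured 0, 0, 0 and 12.69 without E2 and 249.3, 113.6, 256.3 and 163.4 with E2 (6.60 ± 1.01, adjusted p = 0.00261). These and the other 8 increases had no overlap between the groups, which the rule for naming them required. VIL1, the microvillus protein villin, measured 0, 0, 0 and 55.39 without E2 and 77.45, 475.8, 131.7 and 295.8 with E2 (6.16 ± 1.27, adjusted p = 0.0197). FGF23, the phosphate-regulating hormone, measured 0, 0, 0 and 4.616 without E2 and 242.1, 80.84, 224 and 30.99 with E2 (6.15 ± 1.31, adjusted p = 0.0227). edgeR did not call VIL1 or FGF23 (adjusted p = 0.177 for both), nor SERPINA3C, FERMT1 or IGFALS. MAGEA9 and SERPINA3C have close paralogs in the rat, so their counts are uncertain.

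Among the called genes outside the gene lists and the rule, some are known to be active in the lactating gland and were picked after their values were seen. No set of such genes was counted or tested. ABCG2, the transporter that secretes riboflavin into milk, was 3.86 higher on the log2 scale, ACSL1, an acyl-CoA synthetase, 3.10, and HPGD, which inactivates prostaglandins, 3.58. Lower genes, also picked after their values were seen, were TFAP2B (-3.34), a transcription factor of luminal cells, FGFR2 (-3.41), the growth factor receptor needed by luminal cells, and TSKU (-3.54), a secreted leucine-rich protein.

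Of 36 S phase genes and 46 genes of G2/M none was called by limma or edgeR with all rats (2 S phase genes and 0 G2/M genes by DESeq2, and SLBP and TUBB4B, both lower, by limma without A4-8), the medians were 0.20 and 0.84, and 34 of the 46 G2/M genes had a positive difference. MKI67, a marker of cycling cells, measured 0, 54.03, 0 and 15 without E2 and 10.68, 145.3, 172.5 and 28.18 with E2, with overlap (3.32 ± 1.21, adjusted p = 0.194). CCND1, the cyclin that drives entry into the cell cycle, had means of 5523 ± 1980 without E2 and 5890 ± 3023 with E2 (SD, n = 4 each; difference 0.00 ± 0.38). No gene of the cyclin, cholesterol synthesis, secretory pathway, estrogen metabolism, MHC class II or circadian lists was called by limma or edgeR with all rats, while DESeq2 called 3 cholesterol synthesis genes lower and 2 secretory pathway genes higher, and limma without A4-8 called FDPS, of cholesterol synthesis, lower and SEC24D, of the secretory pathway, higher. limma also called none of 17 p53 targets, 14 EGF family genes and 18 epithelial junction genes with all rats, of which 3 (GADD45A, BBC3 and PERP, all lower), 2 (AREG and BTC, both lower) and 2 (CLDN8 and GJB1, both higher) were called without A4-8. In these lists edgeR with all rats called AREG lower, and DESeq2 called 1 higher and 3 lower p53 targets, 2 lower EGF family genes and 2 higher junction genes. For PERP, A4-8 itself was at 1284, below every rat with E2 (1595 to 3035). Of 17 genes of prolactin and STAT5 signaling, PRLR was called lower and IRS1 higher by limma. Without A4-8 limma called 3 of them lower (PRLR, PTPN1 and TTC9) and IRS1 higher, with all rats edgeR called 1 lower and 0 higher, and DESeq2 3 lower and 1 higher. Among 21 immediate early and heat shock genes 20 had a negative difference (median -0.53), and JUND was called lower by limma, with ATF3 and KLF4 as well without A4-8, while DESeq2 called 5 lower. JUND, an AP-1 subunit, measured 365822, 353850, 586874 and 356802 without E2 and 204677, 202176, 251441 and 171134 with E2 (-0.98 ± 0.20, adjusted p = 0.0197).

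Of the 20 genes of mucosal defence and acute phase, PIGR was called with all rats, and C3, ORM1 and LPO were called as well without A4-8. C3, the central complement component, measured 2505, 51.39, 70.88 and 4146 without E2 and 10579, 13456, 6628 and 7416 with E2 (4.36 ± 1.14, adjusted p = 0.0718).

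From the genes that the text of the study names, a selection of 18 was examined. None of the 18 was called by limma or edgeR with all rats, and DESeq2 called 1 lower. By limma without A4-8, TGFBR3, a TGFB co-receptor, and S100A6, a calcium-binding protein, were called, the first higher (adjusted p = 0.0346) and the second lower (adjusted p = 0.0292). BRCA1, BRCA2, EGR1, ID1 and PROCR were not called in either fit. Of the 22 TGFB ligands, receptors and targets none was called by limma or edgeR with all rats and 1 was called higher by DESeq2, and their median was -0.03 (0.17 with scaling to reads outside milk proteins).

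**Figure D3:**
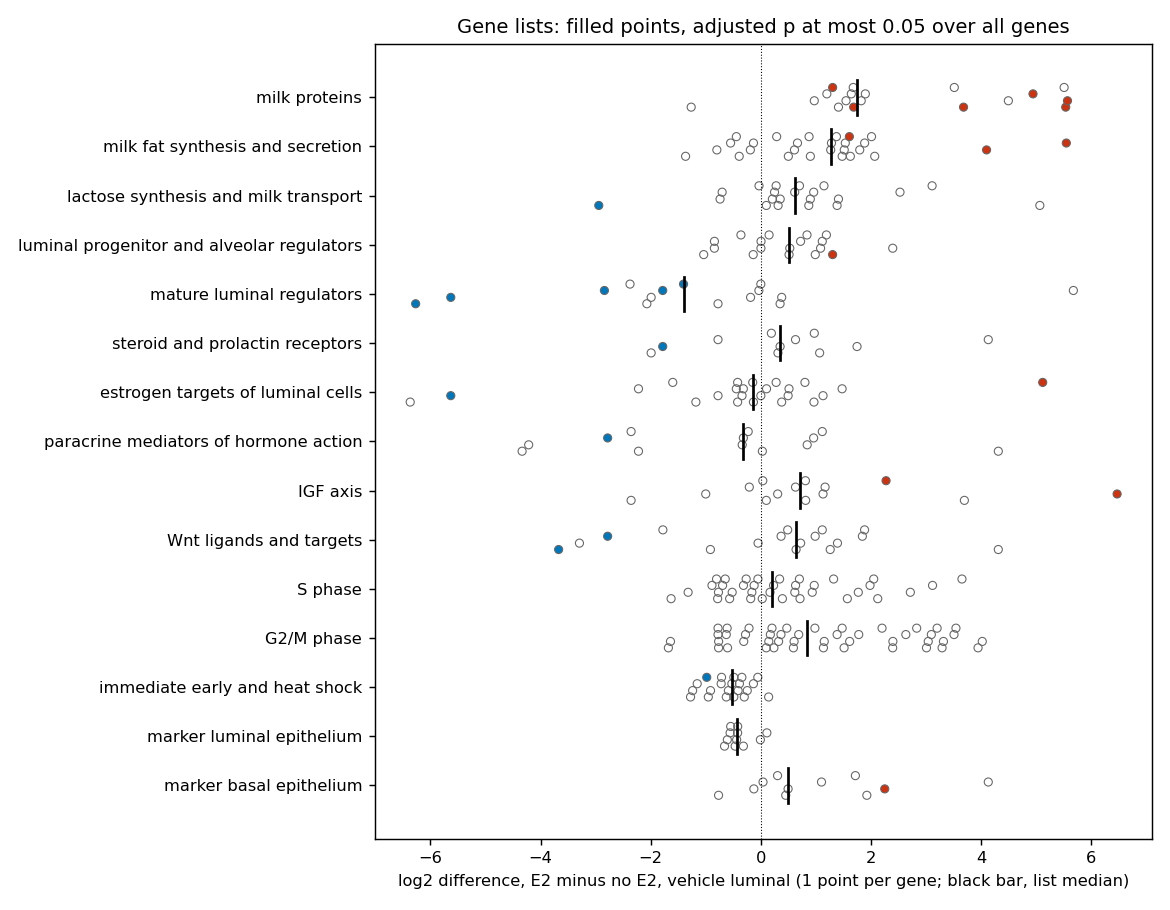
Log2 difference with against without E2 in vehicle luminal cells (horizontal axis) for every tested gene of 15 lists, 1 point per gene, filled where the adjusted p was 0.05 or less, with a black bar at the list median. Milk proteins (median 1.75) and milk fat genes (1.27) lie mostly to the right and mature luminal regulators (-1.40) mostly to the left, while estrogen targets (-0.14) spread to both sides.

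KRT14, a keratin of basal cells, measured 855.5, 632.5, 281.1 and 456.9 without E2 and 2445, 2179, 3073 and 2188 with E2 (2.25 ± 0.46, adjusted p = 0.0196). It was the one called of 11 basal markers by limma, while edgeR called 0 of them (KRT14 at an adjusted p = 0.0547). Of the 11 markers 9 had a positive difference, with a median of 0.50. The summed level of the basal markers was 3309 to 6687 without E2 and 7490 to 11255 with E2, with KRT14 included. KRT5, its usual partner, measured 290.6, 141, 94.1 and 66.93 without E2 and 230.6, 97.21, 119.8 and 225.4 with E2, so the groups overlapped (0.30 ± 0.67, adjusted p = 0.891), and ACTA2, smooth muscle actin, was between 7.122 and 52.19 in all 8 rats. TP63, the master regulator of basal cells, measured 1.816, 11.86, 3.666 and 17.31 without E2 and 154.9, 74.7, 0 and 53.53 with E2 (1.93 ± 1.57, adjusted p = 0.628), and KRT17, another basal keratin, 4505, 1359, 1660 and 2017 without E2 and 3926, 3298, 4860 and 6912 with E2 (1.10 ± 0.41, adjusted p = 0.209). In 3 of 4 rats with E2 TP63 was above every rat without, and the KRT17 groups overlapped through A4-18. The part of basal cells in the KRT14 result was not tested.

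The marker lists of other cell types held no gene called by limma or edgeR with all rats. DESeq2 called 2 adipocyte markers and 1 leukocyte marker higher, and limma without A4-8 called the adipocyte marker CFD higher (1.91, adjusted p = 0.0246). Fibroblast markers summed to 3926 to 7882 without E2 and 1890 to 31446 with E2, endothelial markers to 4530 to 9854 and 5144 to 10180, leukocyte markers to 769.7 to 1814 and 1194 to 4593, and adipocyte markers to 3070 to 6671 and 4352 to 8426. Plasma cell markers summed to 32199 to 43010 without E2 and 33105 to 38622 with E2. Erythrocyte markers summed to 0 to 29.33 and 11.57 to 47.07. The ranges of the groups overlapped for all 6 of these lists, and their part in the results was not tested.

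The rats were then placed between the groups, each by the genes called without it. The place of a rat was its log2 value as a percent of the way from the mean without E2 (0) to the mean with E2 (100), and its median over those genes describes the rat. A4-8 had a median of 64.1% over the 531 genes called without it. A4-38, A4-18 and A4-28 had medians of -10.3, 6.9 and 22.8%, over 89, 134 and 193 genes. The rats with E2 had 86.4 to 100%, over 98 to 132 genes. For these other rats A4-8 counted as a rat without E2, both in the calls and in the 0 point. The places therefore rest on unlike genes and scales, and part of the contrast with A4-8 is built in. The place of A4-8 was 69.9% over the 314 genes that were higher with E2 and 54.4% over the 217 that were lower. Of the 531 genes, 165 had a value of A4-8 within the range of the rats with E2, 222 a value between the ranges of the rats with E2 and of the other 3 without, and the rest lay within the range of the other 3 rats or past either range.

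The milk genes of A4-8 were at very unequal levels. Relative to the mean of the rats with E2, A4-8 had 97.01% of WAP, 91.15% of TF and 167.8% of THRSP, a regulator of lipid synthesis, and its CSN3 and BTN1A1 were slightly above that mean. In the same library CSN2 was at 51.66%, GLYCAM1 at 37.44%, CSN1S2A at 10.45%, FABP3 at 6.64% and WFDC3 at 4.629%. Of the 14 milk protein genes called without A4-8, 4 had its value within the range of the rats with E2, 1 past it and 9 between the ranges, and none within the range of the other 3 rats without E2.

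**Figure D4:**
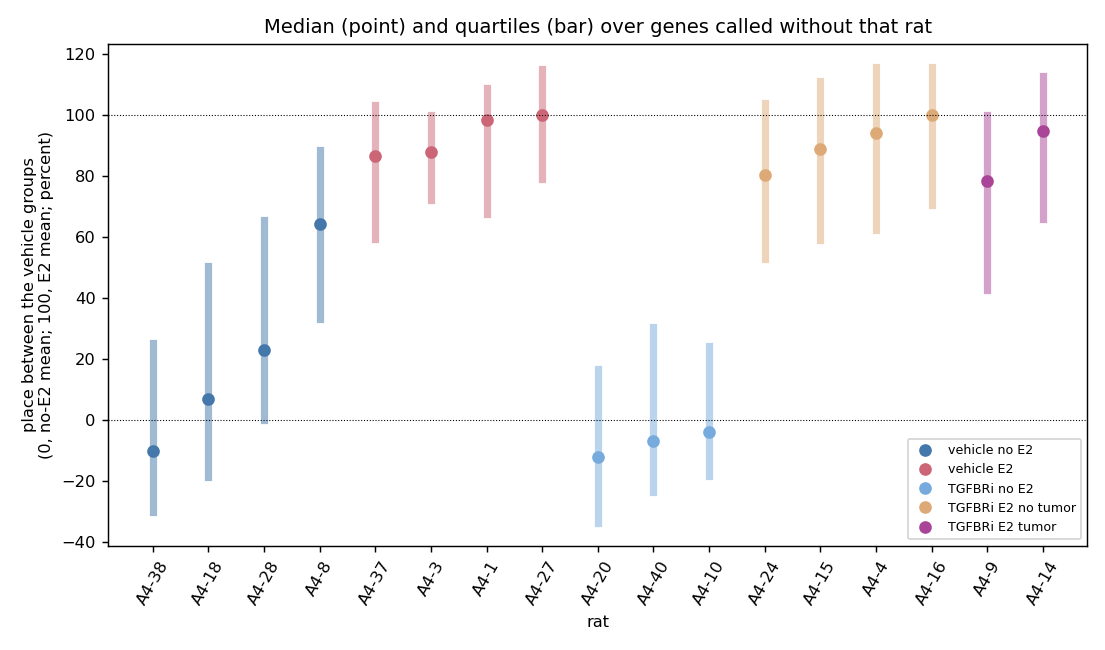
Place of each of the 17 luminal rats between the vehicle groups (vertical axis, percent, 0 for the mean without E2 and 100 for the mean with E2), as the median (point) and quartiles (bar) over the genes called without that rat, or over the 201 called genes for rats given TGFBRi. A4-8 lies at 64.1%, between the other 3 vehicle rats without E2 (-10.3 to 22.8%) and the vehicle rats with E2 (86.4 to 100%). The gene sets differ between the vehicle rats.

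Rats given TGFBRi (75 mg/kg, on the same schedule) gave an E2 comparison that shares no rat with the vehicle one and holds no tumor-bearing rat, 4 tumor-free rats with E2 against 3 without. There 343 genes were higher and 280 lower with E2 (2.52% and 2.06%), 4.58% of the 13590 tested. Of the 201 genes called in vehicle rats 194 had the same sign (96.5%, against 67.9% of all genes tested), and 122 were called in the same direction, which is 60.7% of the vehicle calls and 19.6% of the TGFBRi calls. These were 62 of the 115 higher and 60 of the 86 lower genes. Both comparisons came from the same limma fit, however, and share its estimate of the spread of each gene. A gene with a low estimate is more easily called in both, so the shared calls are not independent. The median absolute difference of the 201 genes was 2.87 in vehicle rats, and 2.34 in TGFBRi rats when counted in the vehicle direction.

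CSN1S2A measured 1908, 757.2 and 244.1 in the TGFBRi rats without E2 and 86478, 246238, 82066 and 122399 in the tumor-free ones with E2 (7.42 ± 0.76, adjusted p = 5.25e-05). LEFTY1 measured 284.5, 6561 and 4751 without E2 and 1.073, 4.125, 0 and 0 with E2 (-10.16 ± 1.11, adjusted p = 9.47e-05). In both genes the groups did not overlap, and the rats with E2 bore no tumor here. WFDC3 (5.37, adjusted p = 9.85e-05), FABP3 (7.10, adjusted p = 9.85e-05), WNT4 (-2.46, adjusted p = 0.0233) and STC2 (-7.43, adjusted p = 0.00209) were also called. CSN2, which was not called in vehicle rats, measured 82497, 28902 and 7111 without E2 and 2182183, 4294492, 1783542 and 2462334 with E2 (6.62 ± 1.74, adjusted p = 0.0428).

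The 7 genes with the opposite sign were AGT, FGF23, GPNMB, GRIN2A, MAP7D2, MGC109340 and MYCL. MYCL, a MYC family transcription factor, measured 182.5, 139.7, 155.2 and 20.77 in the vehicle rats without E2 and 0 in all 4 with E2 (at least 147-fold lower against the floor of 3 reads, adjusted p = 0.002). In TGFBRi rats it measured 66.3, 9.298 and 29.26 without E2 and 55.98, 26.12, 75.16 and 78.59 in the tumor-free rats with E2 (1.00 ± 1.06, adjusted p = 0.661). In the 2 tumor-bearing TGFBRi rats with E2 it was at 8.336 and 0. FGF23 was at 0 in 3 of the 4 tumor-free TGFBRi rats with E2 and at 7.707 in the fourth. IRS1 measured 30.21, 22.58 and 100.6 without E2 and 51.28, 67.37, 27.84 and 48.74 with E2 in TGFBRi rats (0.18 ± 1.20, adjusted p = 0.964).

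The difference between the effects of E2 in vehicle and TGFBRi rats was tested for all 13590 genes in the same limma fit, and no gene was called (0.0%), while 579 had an unadjusted p below 0.05. edgeR called 0, DESeq2 17 and limma with no trended or robust prior 5. For MYCL the difference of the effects was -7.60 ± 1.45 (adjusted p = 0.218), for FGF23 7.52 ± 1.92 (adjusted p = 0.696) and for IRS1 4.94 ± 1.63 (adjusted p = 1.0). TGFBRi treatment and tumor status differ together in this comparison and cannot be told apart. With 2 tumor-bearing TGFBRi rats, which had medians of 78.3 and 94.7% on the scale of places, no test by tumor status was made.

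**Figure D5:**
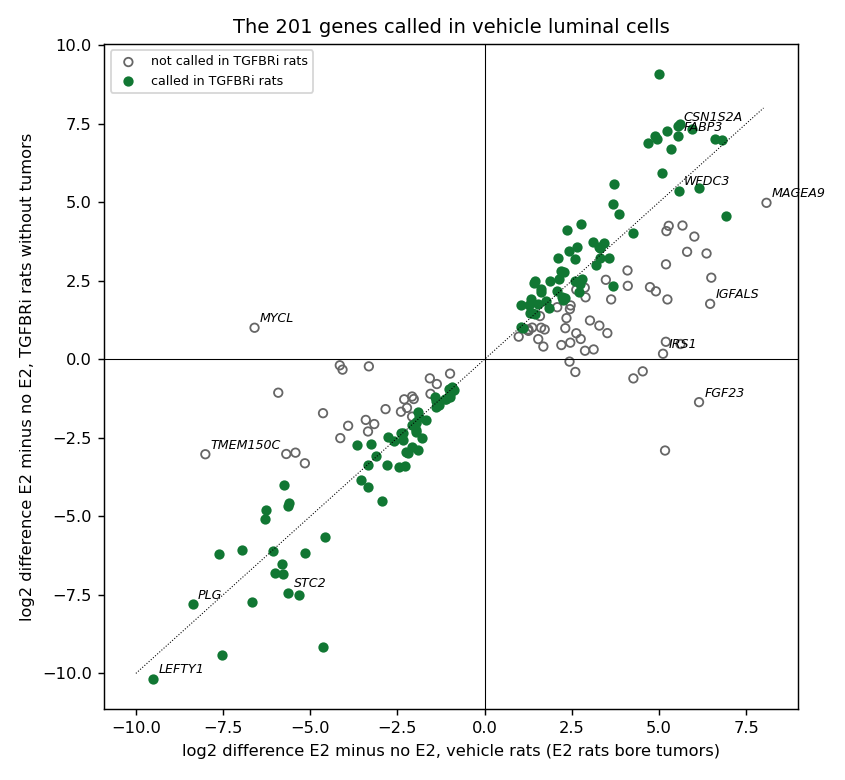
Log2 difference with against without E2 in tumor-free TGFBRi rats (vertical axis) against that in vehicle rats (horizontal axis) for the 201 genes called in vehicle luminal cells, filled where also called in TGFBRi rats, with a dotted line at equal values. Of these genes 194 lie in the quadrants of equal sign and 122 are filled, and MYCL (-6.60 and 1.00) and FGF23 (6.15 and -1.36) lie in the opposite quadrants.

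In the CD45+ fraction of the same 8 rats, 8 genes were higher and 30 lower with E2 by limma (0.0593% and 0.223%), 0.282% of the 13483 tested, with 1626 at an unadjusted p below 0.05. edgeR called 0 (1583 at an unadjusted p below 0.05), DESeq2 137 higher and 114 lower, and limma without A4-8 129 higher and 53 lower, so the count and its split rest on the tool and on A4-8. Milk proteins took 0.1142% ± 0.05845 of the CD45+ reads with E2 and 0.1123% ± 0.1334 without (SD, n = 4 each), with the highest share, 0.3115%, in A4-8. CSN2 measured 945.2, 312.9, 33.18 and 19963 in the CD45+ cells of rats without E2 and 4226, 17307, 6058 and 12583 with E2 (3.69, adjusted p = 0.276). Of 190 luminal calls that could be tested in the CD45+ cells, 6 were called there with the same sign, AQP5, BAIAP2L1, SMIM38, STC2, TSKU and WNT5A, all lower with E2. Of 11 luminal epithelial markers, 9 had a negative difference in the CD45+ cells (median -2.13, against -0.04 for all genes tested there), and KRT8 and KRT19 were called lower. KRT8 measured 2384, 3208, 2775 and 3125 in the CD45+ cells without E2 and 192.5, 755.4, 297.4 and 635.6 with E2 (-2.81, adjusted p = 0.031), and the part of luminal cells in these 6 results was not tested. For JUND, which was called in luminal cells, the difference in the CD45+ cells was 0.20 (adjusted p = 0.769).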

How the data were processed

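RNA of sorted cells was made into low-input SMARTer libraries and read as single ends of 75 bases. Per the submitters' processing notes, the tools include STAR 2.5.1b, HTSeq and DESeq2 1.30.1, with genome build rn6, and the deposited values are a signal per gene, the authors' read counts divided by a size factor of each library. In the 20 luminal tables of this experiment all 235676 values above 0 were whole multiples of 1 step (100% at a tolerance of 0.001 reads), which gave the reads back. The rows that name no gene (28.7 to 40.6% of reads in these tables) were kept out. Reads were not counted by strand as far as stated, so antisense partners cannot be separated. Samples were grouped by the labels, and 4 parts of 1 TGFBRi rat (A4-15) were averaged.

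limma 3.58.1 in R 4.3.3 (trended, robust prior) was fitted to log2(normalized count + 1) of all 17 luminal rats in 5 groups, so that they share 1 estimate of the spread, on genes whose values sum to at least 10. Fold changes on this scale understate the change of low genes. edgeR 4.0.16 and DESeq2 1.42.0 on the recovered reads, TMM scaling, scaling to reads outside milk proteins, other pseudocounts and filters, a fit of the 8 vehicle rats alone and leaving out each rat were the alternatives. The genes named are the 10 per direction with the largest difference among called genes that average 50 or more reads and whose groups do not overlap, the genes the study names, and called or main members of 34 lists. The members and lists were chosen with earlier results of these data known. Data were simulated for the vehicle comparison (13436 and 13444 genes with limma), with 200 genes changed among those averaging 50 or more reads. Recovery of lower genes was not tested. limma recovered 62.5% of changes of 2 and 85% of changes of 4 on the log2 scale. edgeR recovered 60 and 89.5%, and DESeq2 77 and 93.5%. False calls were 8 and 9 with limma, 4 and 6 with edgeR and 46 and 67 with DESeq2 (66 for the difference of the E2 effects at a change of 4). Intervals of read ratios are 95% exact intervals. Reads carry no molecular identifiers, so intervals and floors cover counting error only. Promoters were taken from RefSeq (GRCr8) by symbol, which matched 10162 of the 13590 genes tested.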

Additional observations from a re-analysis of the deposited data

Results flagged for a closer look

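In 13 of 83 groups of 4 rats examined, 1 rat was flagged against the other 3 by Dixon's test at the 95% level. The value given is the gap to the nearest rat divided by the whole range of the group. Chance gives about 1 in 20 such groups, a rate that does not hold where 3 of the 4 rats are at 0. The share of luminal reads on milk proteins in the rats without E2 had a ratio of 0.831, with A4-8 at 17.04%. MYCL had a ratio of 0.875 in the rats without E2, with A4-8 lowest at 20.77. JUND had a ratio of 0.934 in the rats without E2, with A4-38 highest at 586874. In 10 further groups the ratio was 1.0, because 3 of the 4 rats were at 0 and the other was not. In the rats without E2 these were GRIK2 (A4-8 at 12.69), OLFML1 (A4-8 at 1.154), VIL1 (A4-8 at 55.39), FGF23 (A4-8 at 4.616), SERPINA3C (A4-8 at 10.39), LDHC (A4-28 at 9.224) and FERMT1 (A4-28 at 10.54). In the rats with E2 they were TMEM150C (A4-1 at 39.17), CACNA1S (A4-3 at 13.17) and CNTN1 (A4-27 at 1.023). The values of OLFML1 and CNTN1 were 1 read each.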

How the results depend on the processing

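None of 41 named genes changed sign under any alternative that gave it a value (a filter at a mean of 50 gave none for FGF23 and MYCL). Of their calls 27 were kept with edgeR, 39 with DESeq2, 40 with TMM scaling, 40 with scaling to reads outside milk proteins, 36 in the fit of the 8 vehicle rats, 29 with no trended or robust prior, 41 without A4-8 and 22 without A4-38. Of the 201 calls 72 were kept in all 8 fits that left out 1 rat and 123 with all 3 tools. The 115 genes higher with E2 became 311 with DESeq2, 57 with edgeR, 67 with no trended or robust prior and 224 with scaling to reads outside milk proteins. The 86 lower genes became 316 with DESeq2 and 51 with no trended or robust prior. Leaving out 1 rat gave 55 to 314 higher genes (314 without A4-8, 55 without A4-27 and without A4-38, 62 without A4-3 and 67 without A4-37, 75 without A4-1) and 34 to 217 lower genes (217 without A4-8, 34 without A4-38, 43 without A4-27, 56 without each of A4-1, A4-3 and A4-18). Milk proteins called higher went from 6 to 2 with edgeR and ranged from 3 to 14 when 1 rat was left out (3 without A4-38, 14 without A4-8), milk fat genes from 2 to 11. Mature luminal regulators called lower went from 5 to 2 with no trended or robust prior and ranged from 1 to 7 when 1 rat was left out. In the TGFBRi rats the 623 calls became 1158 with DESeq2 and 375 with edgeR and ranged from 246 to 645. For the difference of the E2 effects DESeq2 called 17 genes and limma with no trended or robust prior 5. Leaving out 1 rat gave 0 to 2 (2 without the TGFBRi rat A4-24). In CD45+ cells the 38 calls became 251 with DESeq2, 0 with edgeR and 2 with a mean of at least 50, and ranged from 4 to 182 (182 without A4-8). The cause was not tested. No paired analysis was possible because the labels carry no numbers that pair rats with and without E2. With 4 rats per group, a gene with a wide spread among rats, such as CSN2 without E2, can miss the threshold at a large difference.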
